A study of Homo sapiens with 9 samples.

Results

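The baseline transcriptome described here is that of the control cells of a hairpin study, which carried the non-targeting short hairpin RNA shNC. It comprised the 3 libraries labelled shNC out of 9 in the series, chosen by label alone, and 23603 of the 27407 rows of the expression table, those with a gene symbol. The cells are labelled Weri-RB1/CRP, a carboplatin-resistant derivative of a human retinoblastoma cell line. The growth medium was RPMI with added fetal bovine serum. The labels name no drug exposure and no parental or hairpin-free library, so the control state is that of hairpin-carrying cells labelled as resistant. The series title concerns the long noncoding RNA SNHG1, which was not analysed here, and the libraries carrying hairpins against it were not used. Genes were ranked by mean FPKM (fragments per kilobase of transcript relative to all mapped fragments of a library), a level per transcript length. Nothing in the labels says that the 3 replicates were separate cultures, so their spread may be technical. No groups were compared, and every value below is a description without a test.

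Retinoblastoma arises in the developing retina from cells related to cone precursors, and the classical route is loss of RB1, which encodes the protein that restrains the E2F transcription factors. Photoreceptor lineage cells are known by a shared transcription factor, CRX, and by the proteins of the light response cascade. Keratins 8 and 18 form the intermediate filaments of simple, single-layered epithelia, and aldehyde dehydrogenases and aldo-keto reductases detoxify reactive carbonyls.

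The shNC cells carried abundant simple epithelial keratin, ferritin, glycolytic and aldo-keto reductase transcripts, and few photoreceptor transcripts. Of 39 genes of the cone, rod and shared photoreceptor lists with a row, 8 reached a mean of 1 FPKM. The share was 54.7% over all rows with a symbol and 65.4% over protein-coding rows. A threshold of 10 estimated counts in every library was reached by 16 of the 39 and by 16005 of all 23603 rows with a symbol. CRX was listed at 0, 0.02 and 0 FPKM in replicates 1 to 3. KRT8, the gene of keratin 8, was at 782, 781 and 786 FPKM. As far as these defining markers show, the data go against the labelled retinal tumour type. The lists and markers were chosen with earlier results of these data known. The identity of the cells was not tested, and they are called shNC cells below. In these bulk libraries, fewer cells of a type and less RNA per cell cannot be told apart. A low level of a symbol can also mean that its reads were assigned to another row, which was not tested.

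Total estimated counts were 21571434, 21563653 and 21535413 in replicates 1 to 3. At this depth 3 counts in a library, the limit that a count of 0 allows, correspond to 0.139 FPKM for a transcript of 1000 bases. This limit covers counting error only. The libraries were close but not identical. Pearson correlations of log2(FPKM + 1) across genes were 0.9956, 0.9956 and 0.9957 for the 3 pairs, over genes that are not independent. The chi-square statistic per degree of freedom, which is near 1 when libraries differ by counting noise alone, was 2.99, 3.61 and 3.35 over 13551 to 13563 genes. The replicates thus differed by more than counting noise and were averaged as 3 samples.

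Of the 23603 genes, 12917 had a mean of at least 1 FPKM, 6011 reached 10 FPKM, 549 reached 100 FPKM and 35 reached 1000 FPKM. The median over all genes was 1.69 FPKM, and over those at 1 FPKM or more it was 8.98 FPKM. At the other end, 1282 genes were listed at 0 FPKM in all 3 libraries and 4755 more had a mean above 0 but below 0.1 FPKM. Protein-coding genes held 97.4% of the summed FPKM, and 65.4% of their 18100 rows reached 1 FPKM. Counts of list members at 1 FPKM or more stand beside this share as well as the 54.7% of all rows with a symbol. Long noncoding RNA genes held 1.92%, with 741 of 4188 rows at 1 FPKM or more. These gene types come from RefSeq, to which 22938 rows were matched.

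The summed FPKM, a sum of levels per length and not of RNA mass, was concentrated in few genes. FTH1 alone held 2.18% of the summed FPKM, the 10 highest genes 9.35% ± 0.0663, the 25 highest 14.9% ± 0.115 and the 100 highest 29.03% ± 0.298 (SD, n = 3). With estimated counts in place of FPKM the share of the 100 highest genes was 18.3%. A total of 449 genes made up 50% of the summed FPKM, and 5445 genes made up 90%. Ranks at the top were stable: 24 genes were among the 25 highest of every library, and 96 among the 100 highest of every library. Only 54 of the 100 highest genes by FPKM were also among the 100 highest by estimated counts, which are not divided by length.

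**Figure D1:**
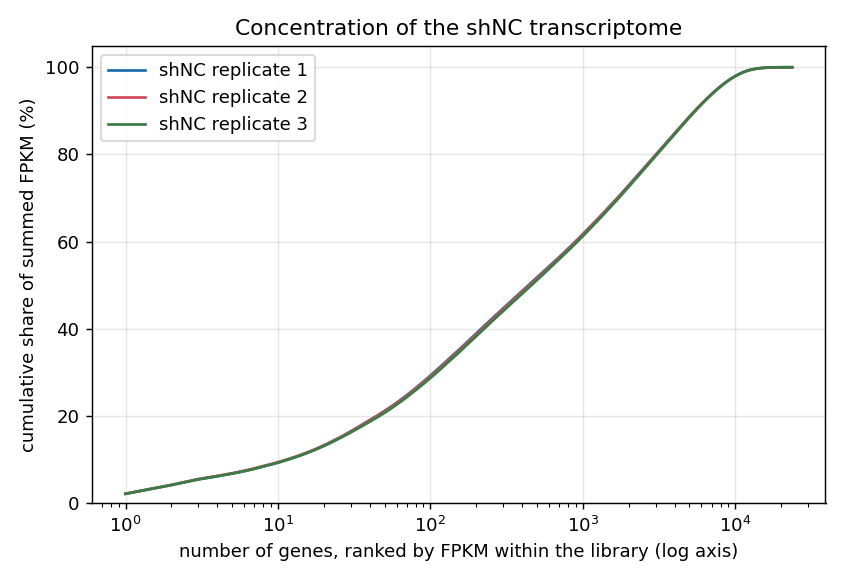
Cumulative share of the summed FPKM (vertical axis, %) against the number of genes ranked from the highest FPKM within each library (horizontal axis, log scale), 1 line per shNC library. The 3 lines lie on each other and pass 50% at about 449 genes and 90% at about 5445 genes.

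Among rows with a gene symbol, the most abundant transcripts encoded the chains of ferritin, the iron storage protein. A row without a symbol, described below, lay higher at a mean of 13392 FPKM. FTH1, the heavy chain, was at 8545, 8468 and 8499.6 FPKM in replicates 1 to 3 (8504 ± 38.5, mean ± SD, n = 3, as in all pairs of this form below). FTL, the light chain, was at 7853, 7972 and 7777 FPKM. The ranges of the 2 chains did not overlap, and both lay above every other gene with a symbol. GAPDH, a glycolytic enzyme, followed at 5141, 5212 and 4991 FPKM. In the seventh and eighth places were the secreted binding protein IGFBP3 and the reductase AKR1C2, whose ranges did not overlap. Among the 25 highest genes, 14 of 24 neighbouring pairs overlapped between libraries and 10 did not, so the order is resolved in steps rather than gene by gene.

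Genes of the cytoskeleton were prominent among the 25 highest. TMSB10, whose product sequesters actin monomers, was at 2825, 2878 and 2798 FPKM. The cytoplasmic actins ACTG1 and ACTB were at 2368 ± 25.8 and 1713 ± 30.3 FPKM, and ANXA2, a calcium-dependent membrane-binding protein, was at 1722 ± 19.97 FPKM. Together with tubulins, tropomyosins, S100 proteins and galectins, the 24 listed genes of this kind held 3.61% ± 0.0164 of the summed FPKM. TMSB4X, encoding thymosin beta 4, was the fifth of them at 721 ± 38.1 FPKM, and TUBB2A, a beta tubulin, was the lowest at 6.32 ± 0.528 FPKM, chosen after its value was seen.

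All 79 listed genes of cytosolic ribosomal proteins were at 1 FPKM or more, and as a set they held 12.7% ± 0.300 of the summed FPKM. These are short transcripts, and the share was 3.72% with estimated counts in place of FPKM. Ribosomal proteins made up 11 of the 25 highest genes, led by RPL13A at 1692, 1648 and 1671 FPKM and RPL26 at 1596, 1577 and 1477 FPKM. In RPL28, RPLP1 and RPS27 replicate 1 was the highest of the 3, with 1564, 1452 and 1427 FPKM for RPL28. The median ribosomal protein gene stood at 539 FPKM. A few lay far below it: RPS28 at 2.71 ± 0.43, RPL9 at 20.2 ± 2.23 and RPL13 at 25.2 ± 1.18 FPKM, chosen after their values were seen. Ribosomal protein genes have many processed copies in the genome, among which estimated counts can be split, so single values are uncertain. Of 12 translation factor genes all were at 1 FPKM or more, the highest being the elongation factor EEF1A1 at 1206 ± 16.2 FPKM and TPT1, the translationally controlled tumour protein, at 1182 ± 36.3 FPKM. The 14 subunit genes of the proteasome core were all expressed too, from PSMA4 at 157 ± 7.89 FPKM down to PSMA5 at 40.6 ± 0.957 FPKM, with a median of 65.5 FPKM.

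**Figure D2:**
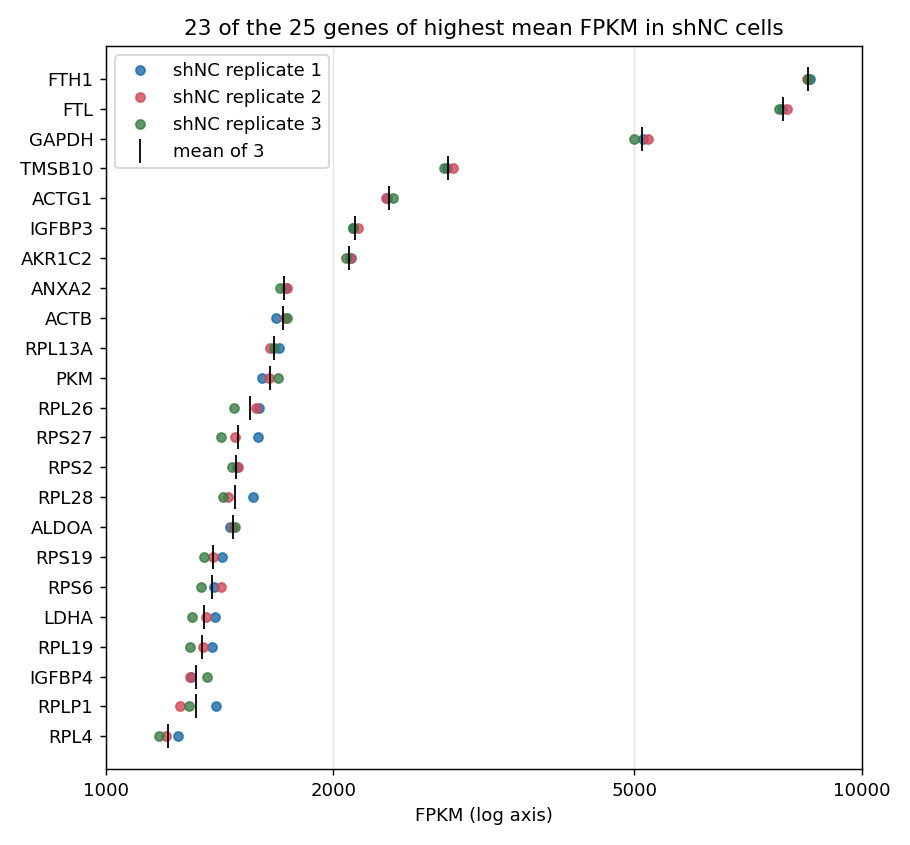
FPKM (horizontal axis, log scale) of 23 of the 25 genes of highest mean in each shNC library (coloured points), with the mean of 3 as a black bar. FTH1, FTL and GAPDH stand apart between 4991 and 8545 FPKM, and the genes from IGFBP3 downward lie close together, with many overlapping ranges.

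The simple epithelial list had 16 of 22 genes at 1 FPKM or more, against 65.4% of protein-coding rows. It held 0.708% ± 0.0066 of the summed FPKM. Its median of 25.8 FPKM was the highest of the 17 lineage lists, which were chosen with earlier results of these data known. KRT18, the partner of KRT8, was at 764, 764 and 757 FPKM and ranked 52 against 48 for KRT8. KRT7, a keratin of glandular epithelia, was at 589.7, 603 and 612 FPKM. The ranges of KRT8 and KRT18 did not overlap, and KRT7 lay below both in every library. ELF3, an epithelial transcription factor, was at 158 ± 2.12 FPKM, the junction component JUP (plakoglobin) at 100.5 ± 3.01 FPKM and the tight junction gene CLDN1 at 68.6 ± 0.794 FPKM.

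Members at intermediate levels, chosen after their values were seen, were KRT19, a further simple keratin, at 59.8 ± 1.79 FPKM, the tight junction scaffold TJP1 at 57.2 ± 1.49 FPKM, desmoplakin DSP at 51.8 ± 0.609 FPKM and CDH1, E-cadherin, at 27.4 ± 0.19 FPKM. Of the 22 members 6 lay below 1 FPKM. CLDN7, another claudin, was at 0.02, 0 and 0.01 FPKM. The epithelial splicing regulators ESRP1 and ESRP2 were at 0.17 ± 0.0954 and 0.0767 ± 0.0643 FPKM, the transcription factor GRHL2 at 0.157 ± 0.11 FPKM and the placental cadherin CDH3 at 0.473 ± 0.0764 FPKM. With EPCAM, the epithelial cell adhesion molecule, at 1.69 ± 0.146 FPKM, the list ranged from abundant keratins and junction genes to near-absent splicing genes.

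Mesenchymal genes ranged as widely, with 11 of 16 at 1 FPKM or more, near the 65.4% of protein-coding rows. Their median was 2.27 FPKM, against 1.69 FPKM over all genes. VIM, the gene of the intermediate filament protein vimentin, was at 715, 714 and 724 FPKM and FN1, the matrix protein fibronectin, at 710.0, 722 and 717 FPKM. Both were within the range of the keratins, KRT7 to KRT8. The smooth muscle actin gene ACTA2 was at 16.2 ± 1.16 FPKM, neural cadherin CDH2 at 11.98 ± 0.254 FPKM and the transcriptional repressor ZEB1 at 11.1 ± 0.445 FPKM. The fibrillar collagen genes COL1A2 and COL3A1 were at 0.07 ± 0.0361 and 0.123 ± 0.0635 FPKM and COL1A1 was at 1.25 ± 0.0265 FPKM, so the collagens that define fibroblasts were low.

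Marker lists of particular epithelial organs lay on either side of the 54.7% of all rows with a symbol at 1 FPKM or more and of their median of 1.69 FPKM. Over protein-coding rows the share was 65.4%. Among lung genes 8 of 12 reached 1 FPKM, with a median of 2.03 FPKM, near these values, led by the lysosomal membrane gene LAMP3 at 69.3 ± 4.83 FPKM and the transcription factor FOXA2 at 19.1 ± 0.452 FPKM. The surfactant gene SFTPC was at 5.53, 5.56 and 7.35 FPKM, whereas NKX2-1, the lung and thyroid transcription factor, was at 0, 0.04 and 0.09 FPKM. Among hepatocyte genes 8 of 13 reached 1 FPKM, with a median of 2.23 FPKM, also near them, led by the fibrinogen chain genes FGA at 27.9 ± 0.518 FPKM, FGG at 14.02 ± 0.47 FPKM and FGB at 9.15 ± 0.556 FPKM, while ALB, serum albumin, was at 0.0333 ± 0.0115 FPKM. In the intestinal list only CDH17, the liver-intestine cadherin, reached 1 FPKM, at 5.05 ± 0.26 FPKM, of 9 genes. Of 11 squamous and basal genes 5 reached 1 FPKM, with KRT10 at 35.3 ± 2.31 FPKM and SFN, an epithelial 14-3-3 protein, at 27.2 ± 1.16 FPKM. The basal keratins KRT5 and KRT14 were at 0.0133 ± 0.0231 and 0.117 ± 0.0252 FPKM, and KRT1 was listed at 0. In the breast, prostate and kidney list 4 of 9 reached 1 FPKM.

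The photoreceptor lists were low apart from a few genes, several of which are also used outside the retina. In the cone list 3 of 13 genes reached 1 FPKM: GNAT2, the cone transducin alpha subunit, KCNB2, a potassium channel subunit, and THRB, a thyroid hormone receptor. GNAT2 was at 19.6, 18.4 and 17.9 FPKM, highest in replicate 1, and it was the only cone gene above 10 FPKM. The cone arrestin gene ARR3 was at 0.19, 0.04 and 0.09 FPKM. The opsin genes OPN1SW and OPN1LW, the phosphodiesterase gene PDE6H and the nuclear receptor gene RXRG were listed at 0 in every library. In the rod list 3 of 15 genes reached 1 FPKM, namely GNB1, a broadly expressed G protein beta subunit, at 77.1 ± 0.56 FPKM, the receptor trafficking gene REEP6 at 4.02 ± 0.212 FPKM and NR2E3, a nuclear receptor of rods, at 0.79, 1.13 and 1.12 FPKM. Replicate 1 of NR2E3 lay below 1 FPKM. SAG, rod arrestin, was listed at 0.

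Of the 11 genes shared by both photoreceptor types, UNC119, a lipid-binding trafficking protein that is also expressed widely, at 14.7 ± 0.896 FPKM, and PRDM1, a transcriptional repressor with a known role in lymphocytes too, at 13.7 ± 0.329 FPKM, were the only members at 1 FPKM or more. RCVRN, encoding the calcium sensor recoverin, was at 0, 0 and 0.08 FPKM, and RBP3, the interphotoreceptor retinoid-binding protein, at 0, 0.01 and 0.01 FPKM. The estimated counts of CRX summed to 1.77 over the 3 libraries and those of RCVRN to 2.05, both under the 3 counts that a count of 0 allows in a library.

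Other retinal lists were low too, beside 65.4% of protein-coding rows at 1 FPKM or more. Retinal progenitor genes had 2 of 9 at 1 FPKM or more, the transcription factors SOX2 at 2.81 ± 0.131 FPKM and LHX2 at 2.34 ± 0.0569 FPKM, while PAX6, the eye field gene, was at 0.347 ± 0.181 FPKM and HES5 was listed at 0. Of 12 inner retinal genes 4 reached 1 FPKM, led by RBPMS, an RNA-binding protein, at 78.1 ± 0.192 FPKM, with the glutamate receptor GRM6 and the RNA-binding gene ELAVL4 listed at 0. In the Muller glia list 2 of 8 genes reached 1 FPKM, VIM and RLBP1, a retinaldehyde-binding protein at 3.88 ± 0.499 FPKM. GLUL, glutamine synthetase, was at 0.67, 0.47 and 0.32 FPKM, and whether its reads were assigned to other rows was not tested. The pigment cell list had 3 of 9 genes at 1 FPKM or more, with BEST1 at 42.0, 83.4 and 83.9 FPKM, but this gene overlaps FTH1 in the RefSeq annotation, so its reads cannot be told apart from those of FTH1 without strand. TYRP1, a melanin synthesis gene, was listed at 0.

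Neuronal genes were mixed. UCHL1, a ubiquitin hydrolase abundant in neurons, was at 354, 349.5 and 342 FPKM and ENO2, the neuronal enolase, at 111, 109 and 112 FPKM. TUBB3, a neuronal beta tubulin, the vesicle fusion gene SNAP25 and the granule protein gene CHGB were at 47.2 ± 1.31, 38.5 ± 1.19 and 16.9 ± 0.662 FPKM. The neuroendocrine transcription factors INSM1 and NEUROD1 were listed at 0. A total of 7 of 14 genes reached 1 FPKM, against 54.7% of all rows with a symbol and 65.4% of protein-coding rows.

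Markers of endothelial and blood cells were low apart from CD68, beside 65.4% of protein-coding rows at 1 FPKM or more. Endothelial genes had 1 of 8 at 1 FPKM or more, KDR, a receptor of vascular endothelial growth factor, at 2.05 ± 0.205 FPKM. In the blood and immune list 5 of 12 reached 1 FPKM. CD68, a lysosomal glycoprotein, was at 274 ± 9.96 FPKM, and the next, CD14, was at 1.86 ± 0.205 FPKM. PTPRC, the pan-leukocyte antigen CD45, was at 0.16, 0.21 and 0.2 FPKM.

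**Figure D3:**
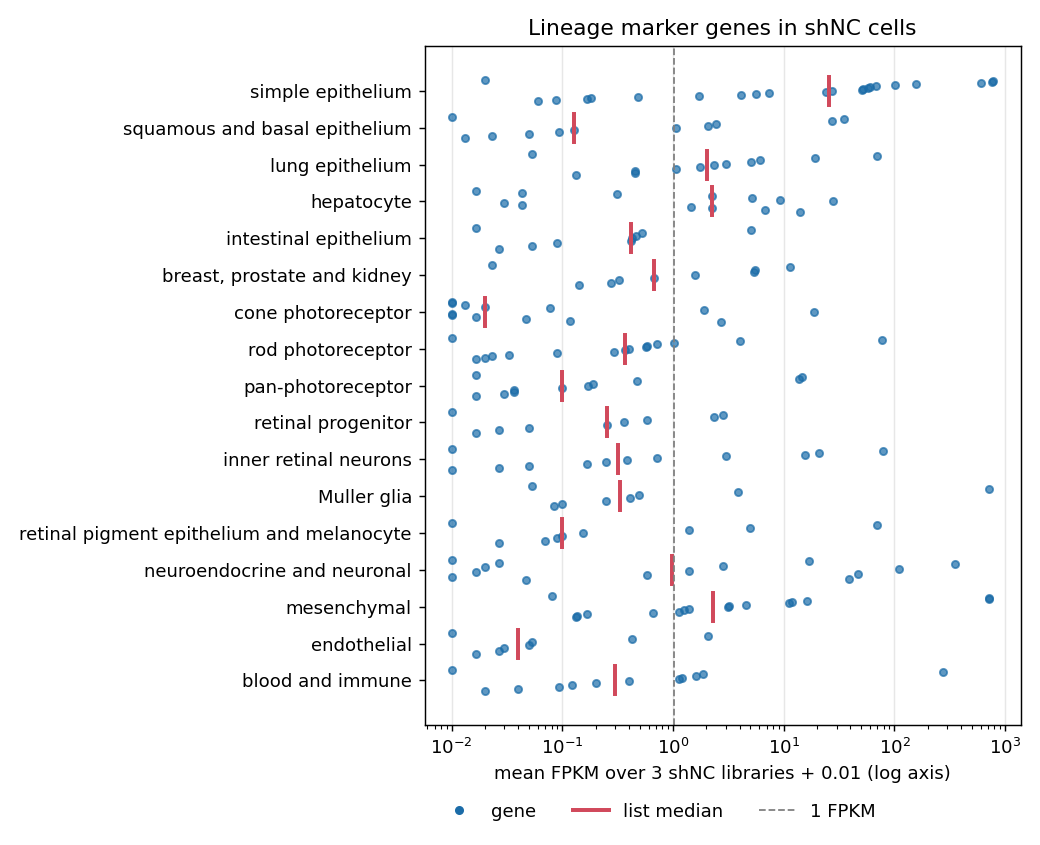
Mean FPKM over the 3 shNC libraries plus 0.01 (horizontal axis, log scale) for each gene of the 17 lineage lists (rows), with the list median as a red bar and 1 FPKM as a dashed line. The simple epithelial median of 25.8 FPKM lies right of the dashed line, and the photoreceptor medians of 0.01, 0.357 and 0.09 FPKM lie left of it.

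Among secreted products, binding proteins of insulin-like growth factors led. IGFBP3, which carries most circulating insulin-like growth factor, was at 2126, 2155 and 2120.3 FPKM and IGFBP4 at 1295, 1292 and 1362 FPKM. IGFBP1, a member known to respond to stress and starvation, was at 199, 199.8 and 209 FPKM. The ranges of these members did not overlap, and IGFBP5 was the only member of the list below 1 FPKM, at 0.783 ± 0.0473 FPKM. The 11 genes of this list, latent transforming growth factor binding proteins included, held 0.975% ± 0.0130 of the summed FPKM, with 10 at 1 FPKM or more.

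Growth factor and hormone genes reached 1 FPKM in 27 of 28 cases, with a median of 43.5 FPKM against 1.69 FPKM over all genes. The highest was PSAP, a lysosomal and secreted sphingolipid activator, at 354 ± 8.01 FPKM. GDF15, a stress-induced cytokine of the transforming growth factor family, was at 286, 289.8 and 298 FPKM and ADM, the vasodilator adrenomedullin, at 281, 283 and 287 FPKM. ANGPTL4, an inhibitor of lipoprotein lipase, was at 219 ± 9.82 FPKM, the Wnt antagonist DKK1 at 164 ± 1.51 FPKM and the growth factor precursor GRN (progranulin) at 154 ± 5.68 FPKM. INHBA, an activin subunit, was the one member below 1 FPKM, at 0.7 ± 0.05 FPKM.

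All 20 listed cytokines and chemokines reached 1 FPKM, with a median of 50.6 FPKM. MIF, macrophage migration inhibitory factor, was highest at 334, 308 and 336 FPKM. The neutrophil-attracting chemokine genes CXCL5, CXCL8 and CXCL1 were at 279 ± 7.40, 189 ± 3.08 and 143 ± 1.74 FPKM, the T cell chemokine CCL5 at 148 ± 4.49 FPKM and LIF, an interleukin-6 family cytokine, at 75.4 ± 1.70 FPKM. CSF2, the granulocyte and macrophage growth factor, was the lowest of the list at 2.46 ± 0.34 FPKM, chosen after its value was seen. The 3 libraries kept these levels apart: MIF lay above CXCL5 and CXCL5 above CXCL8 in every library.

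Inhibitors were high in the protease list. CST3, cystatin C, was at 206 ± 4.92 FPKM and TIMP1, an inhibitor of metalloproteinases, at 187 ± 5.79 FPKM. The highest proteases of the list were MMP7 (matrilysin) at 56.5 ± 1.19 FPKM and PLAU (urokinase) at 56.1 ± 1.51 FPKM, chosen after their values were seen. MMP9, MMP1 and ADAMTS1 were at 0.24 ± 0.04, 0.123 ± 0.0611 and 0.07 ± 0.02 FPKM. Of the 24 genes 17 reached 1 FPKM, against 65.4% of protein-coding rows.

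Matrix genes reached 1 FPKM in 22 of 26 cases with a median of 9.68 FPKM, and FN1 stood well above the rest. The integrin ligand SPP1 (osteopontin) was next at 92.9 ± 1.97 FPKM, then the laminin chains LAMB1 at 61.1 ± 1.88 and LAMA5 at 55.0 ± 3.05 FPKM, and agrin, AGRN, at 59.1 ± 4.69 FPKM. POSTN (periostin) was at 0.0133 ± 0.0115 FPKM.

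Complement and acute phase genes reached 1 FPKM in 15 of 18 cases, against 65.4% of protein-coding rows. CLU, the extracellular chaperone clusterin, was at 356, 371 and 367 FPKM and CP, the copper-carrying ferroxidase ceruloplasmin, at 267, 269.6 and 262 FPKM. The complement components C1R and C3 and factor B (CFB) were at 156 ± 0.305, 154 ± 2.60 and 137 ± 2.17 FPKM. CRP and HP, acute phase products of liver, were at 0.0267 ± 0.0231 and 0.0233 ± 0.0404 FPKM.

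Of the mucin and trefoil genes 8 of 13 were at 1 FPKM or more, near the 54.7% of all rows with a symbol and the 65.4% of protein-coding rows. AGR2, an endoplasmic reticulum protein needed for mucin folding, was at 272 ± 5.63 FPKM, and the membrane mucin MUC1 was at 50.7 ± 4.32 FPKM. Of the gel-forming mucins, MUC5AC was at 66.4, 70.5 and 74.7 FPKM and MUC5B at 42.2, 50.2 and 48.6 FPKM. The intestinal mucin MUC2 was at 0.45 ± 0.0173 FPKM. MUC5AC and MUC5B were lowest in replicate 1, and their ranges did not overlap.

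Glycolysis held the largest share of the metabolic lists after iron storage, with 23 of 24 genes at 1 FPKM or more, a median of 193 FPKM and 3.69% ± 0.0169 of the summed FPKM. After GAPDH, the pyruvate kinase gene PKM was at 1607, 1642 and 1692 FPKM, aldolase ALDOA at 1461, 1473 and 1483 FPKM and lactate dehydrogenase LDHA at 1395, 1355 and 1299.8 FPKM. These lay in the same order in all libraries, with ALDOA above LDHA throughout. ENO1, an enolase, was at 1013 ± 11.2 FPKM and PGK1, phosphoglycerate kinase, at 703 ± 15.6 FPKM. LDHB, the other lactate dehydrogenase chain, was at 300.2 ± 1.78 FPKM, and the hexokinase genes HK1 and HK2 were at 37.5 ± 0.142 and 21.6 ± 0.228 FPKM. LDHB, HK1 and HK2 were chosen after their values were seen.

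All 20 hypoxia target genes were at 1 FPKM or more, against 65.4% of protein-coding rows, with a median of 104 FPKM. NDRG1, a stress-responsive gene of growth arrest, was at 943, 975 and 973 FPKM and ranked 36 of all genes. CA12, a membrane carbonic anhydrase, was at 733, 739 and 737 FPKM. DDIT4, an inhibitor of the growth kinase mTOR, was at 384 ± 11.1 FPKM and the glucose transporter gene SLC2A1 at 185 ± 5.16 FPKM. The order NDRG1, CA12, DDIT4, ADM, ANGPTL4 held in each library. The labels do not state the oxygen level of the cultures.

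Citric acid cycle and respiratory chain genes were expressed at lower levels than glycolysis, as lists. Of 18 citric acid cycle genes all were at 10 FPKM or more and none at 100 FPKM, with a median of 22.2 FPKM. MDH2, mitochondrial malate dehydrogenase, was highest at 79.6 ± 1.37 FPKM, and CS, citrate synthase, was at 46.4 ± 2.00 FPKM. Respiratory chain genes reached 1 FPKM in 18 of 19 cases with a median of 58.7 FPKM, led by the cytochrome oxidase subunit COX7C at 209 ± 9.32 FPKM and the ATP synthase subunit ATP5F1B at 172 ± 4.81 FPKM. NDUFA4 was the exception at 0.34, 0.07 and 0.06 FPKM. Whether its reads were assigned to other rows was not tested, so this value does not show that the gene is silent.

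Aldehyde dehydrogenases were dominated by a pair of cytosolic members. ALDH1A1, which makes retinoic acid from retinaldehyde, was at 944, 919 and 921 FPKM and ranked 38. ALDH3A1, which oxidises aromatic and medium-chain aldehydes, was at 815, 824 and 833 FPKM and ranked 44. The ranges of these genes did not overlap, and each lay far above the third member, ALDH3B1, at 98.9 ± 1.87 FPKM. The mitochondrial enzyme gene ALDH2 was at 56.6 ± 0.97 FPKM. Of the 19 genes 15 reached 1 FPKM, against 65.4% of protein-coding rows, with a median of 4.63 FPKM. ALDH1L1, ALDH1A2, ALDH8A1 and ALDH3B2 were below 1 FPKM.

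Aldo-keto reductases held 1.19% ± 0.0109 of the summed FPKM in 12 genes. AKR1C2, which reduces steroid ketones, was at 2111, 2104 and 2079 FPKM, AKR1C3, a prostaglandin and steroid reductase, at 976, 947 and 932 FPKM and AKR1C1 at 494, 487 and 483 FPKM. AKR1B10, a retinal and aldehyde reductase, was at 652 ± 12.5 FPKM and AKR1B1, aldose reductase, at 368 ± 1.18 FPKM. The AKR1C genes are near-identical copies, so the division of reads among them is uncertain, although the liver member AKR1C4 was at 0.17 ± 0.0361 FPKM. AKR7A3 was listed at 0.

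Targets of NRF2, the transcription factor of the oxidative stress response, reached 1 FPKM in 22 of 25 cases, against 65.4% of protein-coding rows. Their median was 122 FPKM, and they held 1.38% ± 0.0052 of the summed FPKM. The pentose phosphate pathway genes TKT and PGD were at 712 ± 16.7 and 460.5 ± 3.92 FPKM. NQO1, a quinone reductase, was at 641, 651 and 657 FPKM, thioredoxin TXN at 401 ± 10.2 FPKM and the microsomal glutathione transferase MGST1 at 373 ± 14.7 FPKM. The members below 1 FPKM were all glutathione transferases, GSTM1, GSTM3 and GSTA1. GSTM1 was at 0.02, 0 and 0.43 FPKM.

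Iron genes outside ferritin were far lower than the ferritin chains. TFRC, the transferrin receptor that takes iron up, was at 51.7, 49.1 and 50.9 FPKM and SLC40A1, the iron exporter ferroportin, at 4.71 ± 0.396 FPKM. HAMP, the liver hormone hepcidin, was listed at 0. The list of 8 genes held 4.22% ± 0.0147 of the summed FPKM, nearly all of it FTH1 and FTL.

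Lipid synthesis genes all reached 1 FPKM, 20 of 20, with a median of 19.2 FPKM, led by the stearoyl-CoA desaturase SCD at 152 ± 0.699 FPKM and the fatty acid desaturase FADS2 at 82.8 ± 2.10 FPKM. All 11 genes of serine and one-carbon metabolism did too, with a median of 18.0 FPKM. MTHFD2, a mitochondrial folate enzyme, led them at 66.5 ± 1.21 FPKM.

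**Figure D4:**
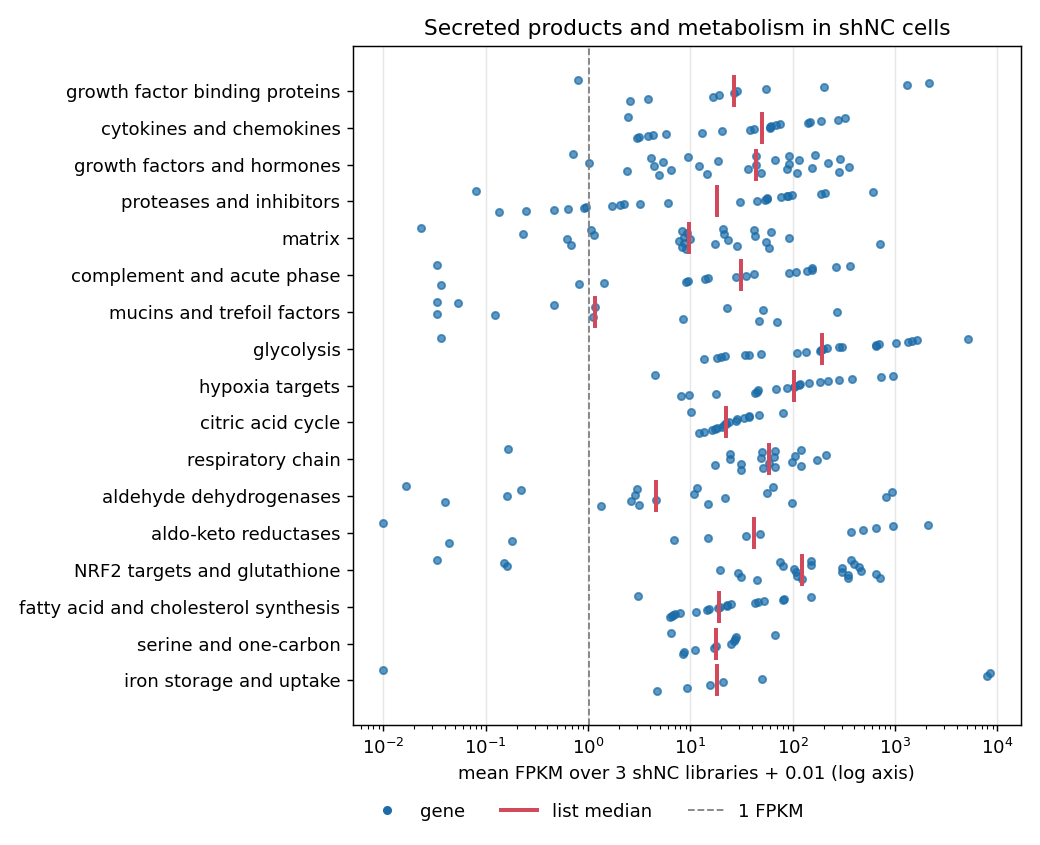
Mean FPKM over the 3 shNC libraries plus 0.01 (horizontal axis, log scale) for each gene of the lists of secreted products and metabolism (rows), with the list median as a red bar and 1 FPKM as a dashed line. The glycolysis median of 193 FPKM is the highest of these lists, and FTH1 and FTL at the right end of the bottom row exceed every other gene with a symbol.

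Promoter sequences are shown for genes at different points of this range, to set measured levels beside the motifs that their reference sequence holds. They are the 250 bases before the start of the gene in RefSeq, build GRCh38.p14, written 5′ to 3′ on the strand of the gene, with matches to the searched motifs in capitals. These 5 genes were chosen after their values were seen. FTL lies at chr19:48965059-48965308 (plus strand), IGFBP3 at chr7:45921273-45921522 (minus strand), GPX2, a glutathione peroxidase of the NRF2 list, at chr14:64942746-64942995 (minus strand), CA9, a carbonic anhydrase of the hypoxia list, at chr9:35673678-35673927 (plus strand) and CRX at chr19:47821687-47821936 (plus strand).
FTL: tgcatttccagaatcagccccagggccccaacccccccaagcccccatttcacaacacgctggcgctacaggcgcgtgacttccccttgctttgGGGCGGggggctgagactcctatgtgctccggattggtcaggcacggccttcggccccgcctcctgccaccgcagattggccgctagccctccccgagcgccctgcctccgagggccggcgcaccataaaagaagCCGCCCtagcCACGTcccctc
IGFBP3: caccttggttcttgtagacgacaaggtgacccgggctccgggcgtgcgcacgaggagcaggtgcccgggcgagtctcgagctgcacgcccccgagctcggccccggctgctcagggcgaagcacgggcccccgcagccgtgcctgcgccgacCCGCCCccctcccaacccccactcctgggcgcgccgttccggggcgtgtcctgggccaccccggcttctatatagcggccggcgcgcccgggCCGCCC
GPX2: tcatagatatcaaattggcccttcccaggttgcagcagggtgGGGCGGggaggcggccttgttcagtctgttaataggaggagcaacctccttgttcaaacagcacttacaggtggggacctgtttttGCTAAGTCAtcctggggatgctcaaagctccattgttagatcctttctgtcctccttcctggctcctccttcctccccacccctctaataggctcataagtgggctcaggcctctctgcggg
CA9: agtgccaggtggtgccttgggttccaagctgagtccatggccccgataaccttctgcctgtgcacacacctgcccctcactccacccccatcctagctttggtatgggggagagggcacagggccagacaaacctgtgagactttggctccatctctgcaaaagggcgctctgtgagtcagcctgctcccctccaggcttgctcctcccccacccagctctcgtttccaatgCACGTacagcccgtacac
CRX: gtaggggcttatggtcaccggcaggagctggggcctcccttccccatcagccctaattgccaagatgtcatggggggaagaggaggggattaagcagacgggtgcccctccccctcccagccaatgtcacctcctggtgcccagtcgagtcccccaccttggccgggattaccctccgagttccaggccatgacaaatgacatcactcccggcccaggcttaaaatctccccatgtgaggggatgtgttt
The motifs were TATAAA (the TATA box), TGACNNNGC (the core of the antioxidant response element), ACGTG (the core of the hypoxia response element) and GGGCGG (a GC box), searched on both strands, and no printed matches overlap. FTL held ACGTG 1 time and GGGCGG 2 times, IGFBP3 GGGCGG 2 times, GPX2 TGACNNNGC and GGGCGG 1 time each and CA9 ACGTG 1 time. CRX held none of the 4. GPX2 was at 345, 368 and 338 FPKM and CA9 at 45.0, 44.1 and 46.7 FPKM.

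Over the 17295 genes with a promoter entry, 8.42% held TATAAA, 11.7% TGACNNNGC, 20.8% ACGTG and 55.2% GGGCGG in this window. GGGCGG was found in 69.7% of promoters of genes at 100 FPKM or more and 66.8% of those from 1 to below 100 FPKM. It was found in 39.8% of those above 0 but below 1 FPKM and 25.4% of those listed at 0. TATAAA did not follow the level in 1 direction: the shares were 14.4%, 4.98%, 12.1% and 18.6% in the same order. Among hypoxia targets 11 of 17 held ACGTG (64.7%), DDIT4, ANGPTL4 and BNIP3 among them, while CA12 and ADM did not in this window. Among NRF2 targets 7 of 20 held TGACNNNGC (35.0%), including PGD and GSTP1, while NQO1 and TKT did not. These lists hold genes picked for known regulation, the shares are over reference sequence, and a match is not a binding site. GC content differed too, with a median of 64.0% in promoters of genes at 100 FPKM or more and 52.8% in those listed at 0.

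Cell cycle genes were all expressed, 21 of 21 at 1 FPKM or more with a median of 17.8 FPKM. PCNA, the sliding clamp of DNA replication, was highest at 139 ± 3.19 FPKM and TOP2A, a topoisomerase, was at 67.7 ± 0.786 FPKM. Subunits of the MCM replicative helicase ranged from MCM7 at 31.4 ± 0.913 FPKM down to MCM6 at 1.397 ± 0.495 FPKM, chosen after its value was seen. MKI67, the proliferation antigen, was at 18.9 ± 0.754 FPKM, also chosen after its value was seen.

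RB1, whose deletion the parental Weri-RB1 line is known for, was at 13.7, 14.7 and 14.2 FPKM, above the median of all genes. Estimated counts of RB1 summed to 3860 over the 3 libraries. These values give neither its sequence nor its exon coverage. Its relatives RBL1 and RBL2 were at 3.60 ± 0.379 and 20.6 ± 0.643 FPKM, chosen after their values were seen. MYC was at 57.0, 58.8 and 58.2 FPKM, whereas MYCN, the family member amplified in some retinoblastomas, was at 0.05, 0.05 and 0.05 FPKM. Among kinase inhibitors, CDKN1A was at 102, 104 and 106 FPKM, while CDKN2A was at 0.1, 0 and 0.11 FPKM and CDKN2B at 0, 0.02 and 0.01 FPKM. The adjacent gene MTAP was listed at 7.27, 7.09 and 5.83 FPKM, chosen after its values were seen. MTAP, CDKN2A and CDKN2B neighbour each other, and the length implied by the counts and FPKM of MTAP was 15086 to 17897 bases, so the row stands for long transcripts, and which part of them holds the reads was not tested.

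Genes that handle platinum drugs were unevenly expressed. The metallothioneins MT2A and MT1X, which bind metal ions, led the list, with 510.3, 494 and 459 FPKM for MT2A and 283, 303 and 269 FPKM for MT1X. The export pumps ABCC3, ABCC2 and ABCC1 were at 159 ± 4.34, 111 ± 0.987 and 74.4 ± 2.52 FPKM, and ABCB1, the multidrug pump P-glycoprotein, at 0.11, 0.08 and 0.12 FPKM. The copper transporter SLC31A1, a known entry route of platinum drugs, was at 4.81 ± 0.16 FPKM, chosen after its value was seen, and the organic cation transporter SLC22A2 was listed at 0. Of 19 genes in this list 15 reached 1 FPKM, against 65.4% of protein-coding rows. All 19 repair genes did, with a median of 6.23 FPKM, led by the nucleotide excision gene ERCC1 at 41.2 ± 0.281 FPKM and XPC at 26.2 ± 0.427 FPKM. The labels name no drug treatment for these libraries.

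Interferon-stimulated genes were abundant, 20 of 20 at 1 FPKM or more, against 65.4% of protein-coding rows. Their median was 174 FPKM, and they held 1.38% ± 0.0122 of the summed FPKM. B2M, the light chain of class I antigens, was at 1158, 1148 and 1130.5 FPKM and IFI6, an interferon-induced mitochondrial protein, at 1205, 1116 and 1092 FPKM. ISG15, a ubiquitin-like modifier, was at 485, 469 and 488 FPKM. IFI27, IFIT1 and OAS1, further antiviral effectors, were at 382 ± 11.6, 313 ± 10.9 and 269 ± 1.83 FPKM. HLA-B was at 6.75 ± 2.15 and HLA-C at 13.6 ± 0.74 FPKM, chosen after their values were seen; class I genes are similar and polymorphic, so their division is uncertain. The alpha interferon genes themselves were near 0, with 0 of 7 at 1 FPKM and 4 listed at 0.

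Immediate early genes reached 1 FPKM in 13 of 15 cases, against 65.4% of protein-coding rows. The phosphatase DUSP1 was at 220.2 ± 4.95 FPKM and the AP-1 gene JUNB at 164 ± 7.19 FPKM. IER3 was listed at 2.05, 0 and 0 FPKM, its level resting on replicate 1 alone. Receptor tyrosine kinases reached 1 FPKM in 12 of 16 cases, against 65.4% of protein-coding rows. The highest were AXL at 102, 101 and 107 FPKM and MET at 101, 101 and 102 FPKM. EGFR was at 67.9, 66.1 and 65.5 FPKM and KIT at 0.02, 0.02 and 0.05 FPKM. AXL and MET overlapped in range and both lay above EGFR in every library.

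Spread between libraries was small for most genes. Over the 6011 genes at 10 FPKM or more, the median coefficient of variation was 3.40%, and 72.5% of genes lay below 5%. The median counting error, the inverse square root of the mean count, was 2.61%. A coefficient from 3 libraries more often falls below the true spread than above it, so these medians are not like for like. The coefficient exceeded 10% in 253 genes, 20% in 45 and 50% in 4. RPL13AP5, a processed copy of RPL13A, was at 78.2, 28.2 and 0.07 FPKM, a coefficient of 111%. GPC3, a cell surface proteoglycan, was at 3.01, 62.2 and 88.4 FPKM, ATP4A, a proton pump subunit, at 7.30, 32.2 and 11.5 FPKM and PPIB, an endoplasmic reticulum prolyl isomerase, at 14.7, 2.95 and 19.4 FPKM. No library was at the same end in all of these: RPL13AP5 was highest in replicate 1, GPC3 lowest in it, ATP4A highest and PPIB lowest in replicate 2. Without replicate 1 the mean of RPL13AP5 was 14.1 FPKM, without replicate 3 that of GPC3 was 32.6 FPKM and without replicate 2 that of ATP4A was 9.40 FPKM. The implied length was 224 to 236 bases for GPC3, 896 to 908 bases for ATP4A and 547 to 8040 bases for RPL13AP5. Whether the reads under these symbols come from the named genes was not tested. The other 6 of the 10 most variable genes were RGL2, SMTNL1, RPSAP9, TSFM, JOSD2 and BEST1, with coefficients from 34.5% to 44.9%.

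**Figure D5:**
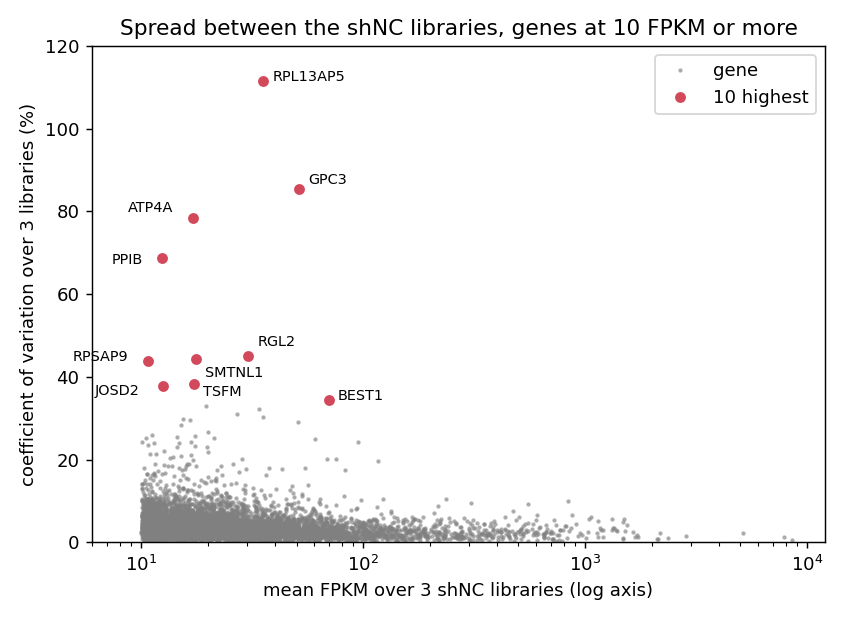
Coefficient of variation over the 3 shNC libraries (vertical axis, %) against mean FPKM (horizontal axis, log scale) for the 6011 genes at 10 FPKM or more, with the 10 highest named. Most points lie near the median of 3.40%, and RPL13AP5 at 111% and GPC3 at 85.4% stand furthest from it.

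Some high-ranking symbols are not those of genes usually abundant in cultured cells, and their length or neighbours make the symbol uncertain. The following genes were chosen after their values were seen. For a gene with a single GENCODE transcript length the length implied by counts and FPKM could lie a little below it, as for FTL with 848 to 849 bases against 878 bases, or a little above it, as for IGFBP4 with 2233 bases against 2200 bases. OTOL1, an inner ear collagen-like gene, was at 1178, 1192 and 1116 FPKM, with an implied transcript length of 544 bases against 1434 bases for its only GENCODE transcript. PLEKHA7, a junction protein gene, was at 919, 826 and 755 FPKM with an implied length of 263 to 269 bases, shorter than its shortest GENCODE transcript of 350 bases. KRT85, a hair keratin, was at 784, 741 and 779.5 FPKM, while its neighbours KRT83, KRT84 and KRT82 were at 0.447, 0.0167 and 0.0067 FPKM. Low neighbours alone do not show that a symbol is wrong. The implied length of KRT85, 1066 bases, lay within its GENCODE range of 714 to 2447 bases, and KRT81, another hair keratin, was at 206 FPKM. The antisense gene PXN-AS1 was at 874, 829.7 and 839 FPKM beside RPLP0 at 91.0, 124 and 135 FPKM, and SNX1, a sorting nexin, at 338, 347 and 333 FPKM near PPIB. Levels assigned to these symbols can hold reads of a neighbouring, overlapping or similar transcript, which was not tested. In turn, a low level of a symbol can mean that its reads were assigned to another row, also not tested.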

How the data were processed

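Per the labels' protocols, RNA of the 3 shNC samples was taken up in Trizol and libraries followed a standard BGI protocol. Per the file headers, the authors deposited an estimated count and an FPKM value for each row and library. The submitters' processing notes list DESeq2 1.4.5, RSEM 1.2.12, HISAT2 2.0.4 and Bowtie2 2.2.5 without saying what each did. Build, annotation and use of strand: not given in the sources used here. Values of overlapping or near-identical genes are therefore uncertain. Estimated counts as deposited can be fractions, and FPKM as deposited is per length.

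Means, SDs, ranks and shares were computed with Python 3.11.15, pandas 2.3.3, numpy 2.4.6 and scipy 1.17.1. The 3804 rows without a symbol, 8.18% to 8.78% of counts, stayed out. A mean of 1 FPKM was called expressed. Replicate agreement used genes with at least 50 counts and was tested on simulated data, where counting noise alone gave 1.007. Implied lengths come from counts and FPKM. Promoters are from RefSeq (17295 rows matched; the entry listed first was taken for 4331 genes with several).

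The 45 lists and the members were chosen with earlier results of these data known. Named are the 25 highest genes, 6 given markers, up to 6 highest members of each list, low defining members of low lists, members listed at 0, the 10 most variable genes at 10 FPKM or more and the 10 highest secreted genes below rank 100. Other genes, including the lowest members of otherwise high lists, were chosen after their values were seen. Alternatives left out each library or used other thresholds, counts in place of FPKM, all rows or ranks by the median. Some genes that this rule covers are not reported here by name; counts and medians of lists are over all measured members.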

Additional observations from a re-analysis of the deposited data

Results flagged for a closer look

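The highest FPKM of the shNC libraries belonged to a row that carries no gene symbol and was therefore outside the ranking. The row listed as BGIG9606_53846 was at 13391, 13934 and 12850.3 FPKM in replicates 1 to 3, a mean of 13392 FPKM. It lay above FTH1 in every library and held 6.84% of all estimated counts, with an implied length of 5088 to 5130 bases. A further row without a symbol, listed as BGIG9606_53847, was at 3109, 3252 and 3047 FPKM, below GAPDH in every library. Its mean was 3136 FPKM, and it held 0.520% of the counts. The file pairs neither with a gene name, and the sequence behind them was not analysed here. Both rows were noted because they hold a signal above the limit that a count of 0 allows in data that the ranking leaves out. With 3 libraries, a single library standing apart was not testable.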

How the results depend on the processing

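No paired analysis was possible because no groups were compared and no result comes from a test. The number of genes at 1 FPKM or more was 12926 to 12941 with each library left out, 14348 at 0.5 FPKM, 12473 at 1 FPKM in every library and 16005 at 10 estimated counts in every library. For photoreceptor genes it was 7 to 8 of 39 with each library left out, and 16 at 10 counts in every library. Genes listed at 0 numbered 1733 to 1759 in pairs of libraries and 1368 below 1 count in all. With estimated counts in place of FPKM, shares were 18.3% for the 100 highest genes, 3.72% for ribosomal proteins, 3.07% for glycolysis and 0.616% for simple epithelium. Over all rows they were 31.2%, 11.98%, 3.48% and 0.668%. There the rows without a symbol enter the sum and, for the first value, the 100 highest rows too. Leaving out each library gave 28.9% to 29.2%, 12.5% to 12.8%, 3.68% to 3.69% and 0.704% to 0.711%. The mean chi-square statistic of the 3 pairs was 3.32, single pairs gave 2.99 to 3.61, and genes with at least 200 counts gave 3.29. The highest coefficient of variation was 128% to 141% in pairs of libraries, an alternative chosen after seeing the data. In a pair it cannot exceed about 141%, so these values are not comparable with the 111% over 3 libraries. Of 139 named genes followed without each library, 12 of 417 means moved by over 1.5 times: those of RPL13AP5, GPC3 and ATP4A, and otherwise of genes below 0.2 FPKM. Depth limits the genes under about 0.139 FPKM per 1000 bases, where a few counts set the level.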

Other observations

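Gene families outside the lists above were examined in the same libraries, and all genes in this section were chosen after their values were seen. Their counts stand beside the 54.7% of all rows with a symbol and the 65.4% of protein-coding rows at 1 FPKM or more. Families tied to specialised tissues were nearly silent. Of 93 olfactory receptor genes 2 had a mean of at least 1 FPKM, OR14K1 at 2.43 ± 0.991 and OR1J2 at 1.06 ± 0.193 FPKM (SD, n = 3), and 47 were listed at 0 in every library. Of 38 keratin-associated protein genes of hair 2 reached 1 FPKM, and of 8 beta-defensin and 7 late cornified envelope genes 0 did. The low level of the hair gene families stands beside KRT85, whose symbol is uncertain as described above, at 768 ± 23.4 FPKM and another hair keratin, KRT81, at 206 ± 8.06 FPKM. Over all 51 keratin genes 11 reached 1 FPKM and 7 were listed at 0. Of 15 bitter taste receptor genes only TAS2R43 did, at 8.36 ± 0.671 FPKM.

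Among 52 cytochrome P450 genes 15 reached 1 FPKM. CYP24A1, which inactivates vitamin D, was at 669, 684 and 679 FPKM in replicates 1 to 3 and ranked 64 of all genes. The next, CYP1B1, an enzyme induced by the aryl hydrocarbon receptor, was at 72.2 ± 1.51 FPKM, so no library brought these members near each other. Of 353 solute carrier genes 206 reached 1 FPKM (58.4%), near the 54.7% of all rows with a symbol and the 65.4% of protein-coding rows. The highest was the amino acid transporter SLC7A5 at 257 ± 13.4 FPKM, whose partner chain SLC3A2 was at 135 ± 4.10 FPKM. Collagen genes reached 1 FPKM in 20 of 44 cases (45.5%), below these shares, with COL5A2, a fibrillar chain, highest at 73.4 ± 0.12 FPKM. Of 47 subunit genes of GABA, glutamate and nicotinic receptors 12 reached 1 FPKM. In the GAGE, PAGE and XAGE families of tumour and germ cell antigens, XAGE1B and XAGE1A were at 23.6 ± 0.93 and 23.0 ± 1.23 FPKM, near-identical copies whose reads cannot be told apart, while the other 9 of 11 stayed below 1 FPKM. GFI1B, a transcription factor of red cell and platelet precursors, was listed at 600.3, 499.6 and 548 FPKM. Its implied length was 1746 bases, and whether the reads under this symbol come from the gene was not tested. The highest row of a long noncoding RNA gene was that of PXN-AS1 at 848 ± 23.3 FPKM, which can hold reads of neighbouring or overlapping transcripts as described above. MALAT1, a nuclear RNA abundant in many cells, was at 152 ± 7.23 FPKM. MIR4300HG, a microRNA host gene, was at 332 ± 11.9 FPKM with an implied length of 301 to 303 bases.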
